A study of Rattus norvegicus with 6 samples.

Results

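Gad1 and Gad2, 2 of the 30560 genes in the count tables (ENSRNOG00000000007 and ENSRNOG00000018200), were followed across all classes of nuclei and all 6 libraries. They were chosen by their symbols and selected on their UMI levels, since both had been seen to be high in cycling oligodendrocyte precursor cells (OPCs) of the hemisphere with the infarction. Their levels in those OPCs are therefore a description and carry no test. The libraries hold nuclei of male wild type rats, 12 weeks old, taken 48 h after the operation. Sham L and Sham R are the left and right hemispheres of 4 Sham-operated rats. mMCAO contra and mMCAO ipsi are the hemispheres of 3 rats with moderate infarctions after occlusion of the middle cerebral artery (MCAO), and sMCAO contra and sMCAO ipsi those of 4 rats with severe infarctions. Ipsi is the side of the occlusion and contra the other side. The rats of a pool were mixed before sequencing, so that each library is 1 sample, and the 2 libraries of the groups Sham, MCAO contra and MCAO ipsi are not separate animals of 1 condition. P-values between groups measure only the spread between these libraries.

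Gad1 and Gad2 encode the glutamate decarboxylases GAD67 and GAD65, which make the inhibitory transmitter GABA from glutamate, and in the forebrain they define GABAergic neurons, that is interneurons and the medium spiny neurons of the striatum. GABA is loaded into vesicles by the transporter encoded by Slc32a1, taken up again by transporters in the cell membrane, and broken down by Abat and Aldh5a1. OPCs are proliferating glia that carry PDGF receptor alpha (Pdgfra) and the proteoglycan NG2 (Cspg4), receive synaptic input from neurons and respond to GABA through GABA-A receptors.

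Because both genes were high in the same cluster of OPC-like nuclei, their promoters are shown, each from 250 bases before to 50 bases after the RefSeq start on the plus strand of the rat build GRCr8. That of Gad1 is chr3:75777202-75777501 and that of Gad2 is chr17:89671468-89671767, while the counts themselves were made on mRatBN7.2. Capitals mark matches on either strand to TATAAA, the core of a TATA box, or to GGGCGG, known as the GC box. Both windows were also searched for CAGCTG (an E-box) and TAATTA (a homeobox core), with no match in either.
Gad1: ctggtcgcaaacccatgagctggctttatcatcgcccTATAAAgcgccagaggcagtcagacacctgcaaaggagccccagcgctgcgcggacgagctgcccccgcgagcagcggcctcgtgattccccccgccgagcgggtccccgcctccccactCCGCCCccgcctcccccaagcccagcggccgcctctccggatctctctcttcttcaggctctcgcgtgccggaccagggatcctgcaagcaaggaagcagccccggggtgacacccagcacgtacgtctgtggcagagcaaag
Gad2: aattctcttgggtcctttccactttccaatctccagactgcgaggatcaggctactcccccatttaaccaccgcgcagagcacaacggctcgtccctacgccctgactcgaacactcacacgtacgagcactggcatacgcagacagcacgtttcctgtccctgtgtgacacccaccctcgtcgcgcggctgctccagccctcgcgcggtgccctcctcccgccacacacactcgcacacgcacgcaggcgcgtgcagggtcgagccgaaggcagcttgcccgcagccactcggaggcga
The Gad1 window held 1 match to TATAAA, from base 38, and 1 to GGGCGG, from base 158, and the Gad2 window held neither. The RefSeq start follows base 250 of the window, so the TATAAA lies far before it. These are matches of sequence, and whether they act was not tested. Of 33469 rat promoters of the same length, 14.2% hold the TATA box, 33.1% the GC box, 15.1% the E-box and 5.36% the homeobox core, on either strand. Both windows were rich in G and C, with 67.7% in Gad1 and 63.7% in Gad2 against a median of 51.7% over all promoters.

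After the limits on nuclei and the removal of likely doublets, 69967 nuclei remained, between 8232 in sMCAO ipsi and 13766 in mMCAO contra, with median depths of 2059 to 3360 unique molecular identifiers (UMIs) a nucleus. Between 118 and 281 cell barcodes were shared by a pair of libraries. Nuclei were clustered without Gad1, Gad2, the neuron-only genes and the GABA genes, and clusters were named from lists of marker genes. 2 clusters were named from the OPC list, with 1823 nuclei in all, and are called OPC-like 1 and OPC-like 14 by their numbers. Clusters left unnamed also carried that list, beside markers of oligodendrocytes (178 nuclei) or of myeloid cells (377 nuclei). OPC-like 1 held 1441 nuclei from every library (187 and 155 in Sham L and Sham R, 314 and 227 in mMCAO and sMCAO contra, and 332 and 226 in mMCAO and sMCAO ipsi). OPC-like 14 held 382 nuclei, of which 161 and 212 were in mMCAO and sMCAO ipsi, 5 and 4 in mMCAO and sMCAO contra, and 0 in Sham. Its leading genes by fold were Hmga2, a chromatin protein of progenitors, and Tnc, a matrix protein, and Cenpf, Top2a and Pdgfra were also among the 10 highest. A nucleus was called cycling with 3 or more UMIs over 23 cell cycle genes. Of the OPC-like nuclei, 178 of 493 in mMCAO ipsi and 239 of 438 in sMCAO ipsi were cycling. There were 25 of 319 in mMCAO contra, 25 of 231 in sMCAO contra, 10 of 187 in Sham L and 7 of 155 in Sham R. The cut was not corrected for depth. OPC-like nuclei had a median of 1927 UMIs in sMCAO ipsi, 976 in mMCAO ipsi and 613 to 1134 in Sham and MCAO contra.

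Markers of the OPC list, which also named the clusters, describe the OPC class here and are no separate check of its label. In MCAO ipsi, Pdgfra reached 345 counts per 1000000 UMIs (CPM) in OPC-like 14 and 552 CPM in OPC-like 1, against 1.70 CPM in interneurons of the MGE type (Lhx6, Sst, Nxph1). Sox10, the transcription factor of the oligodendrocyte lineage, was at 125 CPM in OPC-like 14, 119 CPM in OPC-like 1 and 0.243 CPM in those interneurons. The summed level of the OPC marker list was lower in OPC-like 14 (4480 CPM in mMCAO ipsi and 4037 CPM in sMCAO ipsi) than in OPC-like 1 (8738 to 11049 CPM over the 6 libraries), and 9 of its 9 measured markers were found in OPC-like 14 of either library. By mean log2 fold over the median cluster, OPC-like 14 scored 3.83 for the OPC list. Its next list was that of MGE type interneurons, at 1.46. OPC-like 1 scored 4.49, and its next list was that of committed OPCs, at 2.61.

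Gad1 was high in OPC-like 14 and near the level of other glia in OPC-like 1. In OPC-like 14 it was at 200.5 CPM (95% Poisson interval 145 to 270.0, 43 UMIs) in mMCAO ipsi and 184 CPM (150.4 to 222, 106 UMIs) in sMCAO ipsi. In OPC-like 1 it was at 38.3 and 19.3 CPM in Sham L and Sham R, 16.3 and 31.1 CPM in mMCAO and sMCAO contra, and 34.6 and 2.58 CPM in mMCAO and sMCAO ipsi, from 1 to 11 UMIs a library. In both MCAO ipsi libraries the interval of OPC-like 14 lay above that of OPC-like 1. That is a description and no test, since the genes were chosen on such levels. Intervals cover counting error only and leave out the spread between nuclei.

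Gad2 followed the same order. In OPC-like 14 it was at 97.9 CPM (60.6 to 150, 21 UMIs) in mMCAO ipsi and 116 CPM (90.0 to 147, 67 UMIs) in sMCAO ipsi. In OPC-like 1 it ran from 12.6 CPM in mMCAO ipsi to 31.9 CPM in Sham L. Of the 9 OPC-like 14 nuclei in MCAO contra, 2 nuclei of mMCAO contra that were not cycling came with 4 Gad2 UMIs between them, and no Gad1 UMI was found in the 9.

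**Figure D1:**
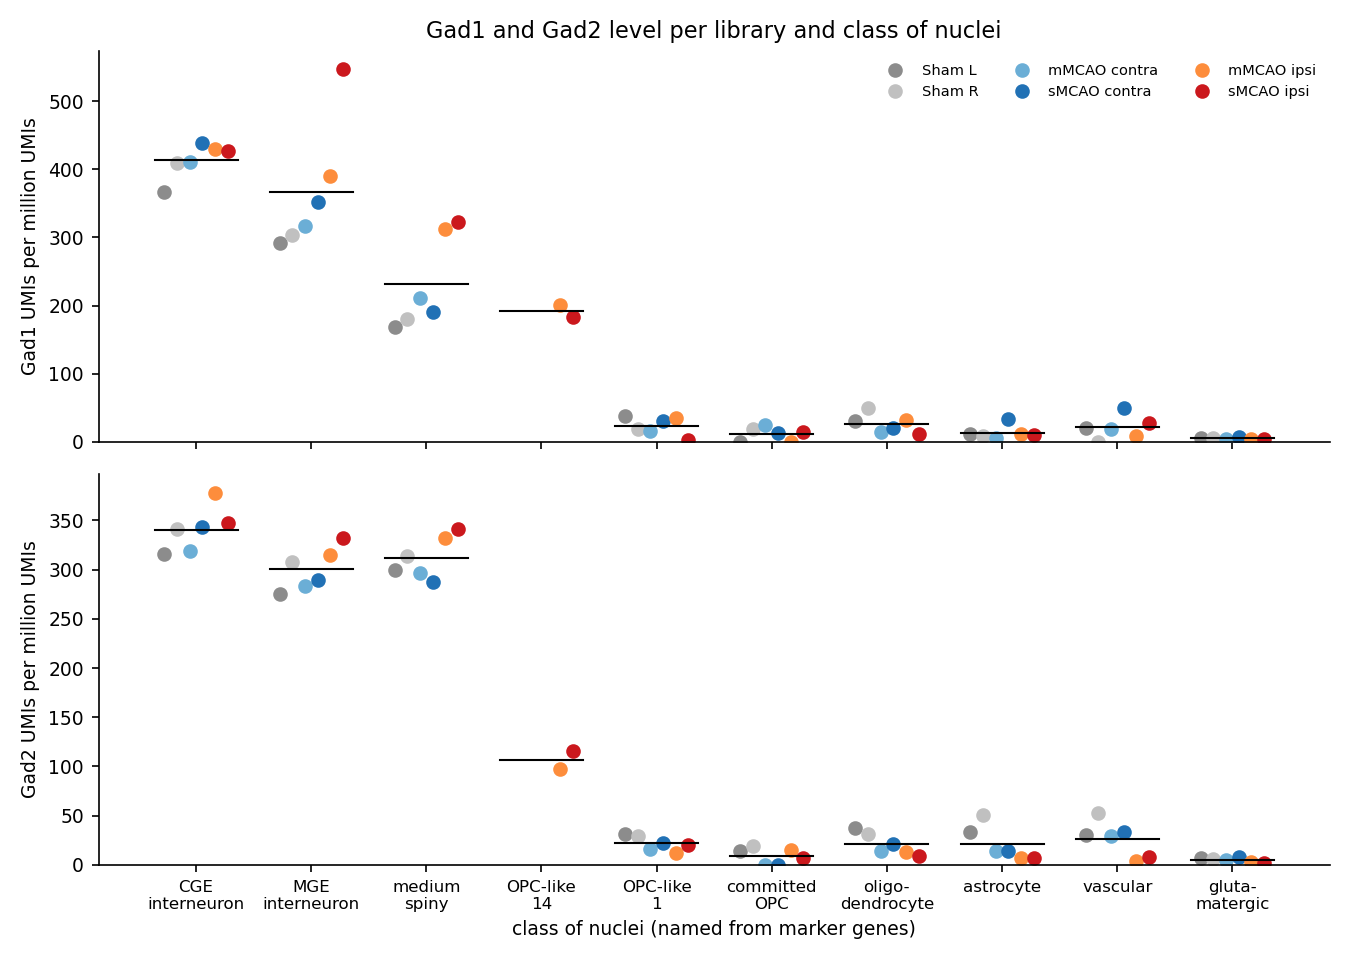
UMIs of Gad1 (top) and Gad2 (bottom) per 1000000 UMIs in each class of nuclei (x axis); 1 point is 1 library with at least 20 nuclei and the black line is the mean over libraries. OPC-like 14, present in the MCAO ipsi libraries, lies at 184 and 200.5 CPM for Gad1, below the GABAergic neuron classes of those libraries and above the other glia plotted, while medium spiny neurons of Sham lie at 168 and 179.9 CPM.

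Cycling alone did not separate the nuclei with high Gad1. Over both clusters, cycling OPC-like nuclei of mMCAO ipsi had 144 CPM of Gad1 (101 to 199.7, 36 UMIs in 178 nuclei) and those of sMCAO ipsi 157 CPM (128 to 191, 101 UMIs in 239 nuclei). Those not cycling had 63.6 CPM in mMCAO ipsi and 18.6 CPM in sMCAO ipsi. Split by cluster, however, the cycling nuclei of OPC-like 1 (65 in mMCAO ipsi and 63 in sMCAO ipsi) held 1 Gad1 UMI in each library, at 11.7 CPM (0.296 to 65.1) in mMCAO ipsi and 7.61 CPM (0.193 to 42.4) in sMCAO ipsi. The cycling nuclei of OPC-like 14 had 213 CPM (149 to 297) in mMCAO ipsi and 196 CPM (159 to 238) in sMCAO ipsi. The OPC-like 14 nuclei that were not cycling still had 159 CPM (68.5 to 312, 8 UMIs in 48 nuclei) in mMCAO ipsi and 90.6 CPM (33.3 to 197, 6 UMIs in 36 nuclei) in sMCAO ipsi.

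Gad2 had the same split. In cycling nuclei it was at 11.7 and 7.61 CPM in OPC-like 1 and at 110 and 114 CPM in OPC-like 14, in mMCAO ipsi and sMCAO ipsi. Without nuclei that held a Snap25, Syt1 or Rbfox3 UMI, however, Gad2 in cycling OPC-like nuclei of mMCAO ipsi was at 13.8 CPM (1 UMI in 56 nuclei) in place of 76.1 CPM, while Gad1 was at 221 CPM. With 1 UMI, this Gad2 level cannot be told from the 17.4 CPM of classes that should lack it. In sMCAO ipsi Gad2 was at 89.4 CPM in place of 91.9 CPM. In OPC-like 14 nuclei that were not cycling it was at 59.5 CPM (12.3 to 174) and 136 CPM (62.1 to 258). The 25 cycling OPC-like nuclei of mMCAO contra and the 25 of sMCAO contra held no Gad1 UMI. Their 95% Poisson intervals reached up to 95.4 CPM and 116 CPM, which leaves room for levels below those of MCAO ipsi. The second limit lies above the lower end, 101 CPM, of the interval of cycling nuclei of mMCAO ipsi. Gad2 had 0 UMIs in the former and 2 in the latter (62.9 CPM, 7.62 to 227). Sham L had 10 cycling nuclei and Sham R 7, too few to give a level.

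**Figure D2:**
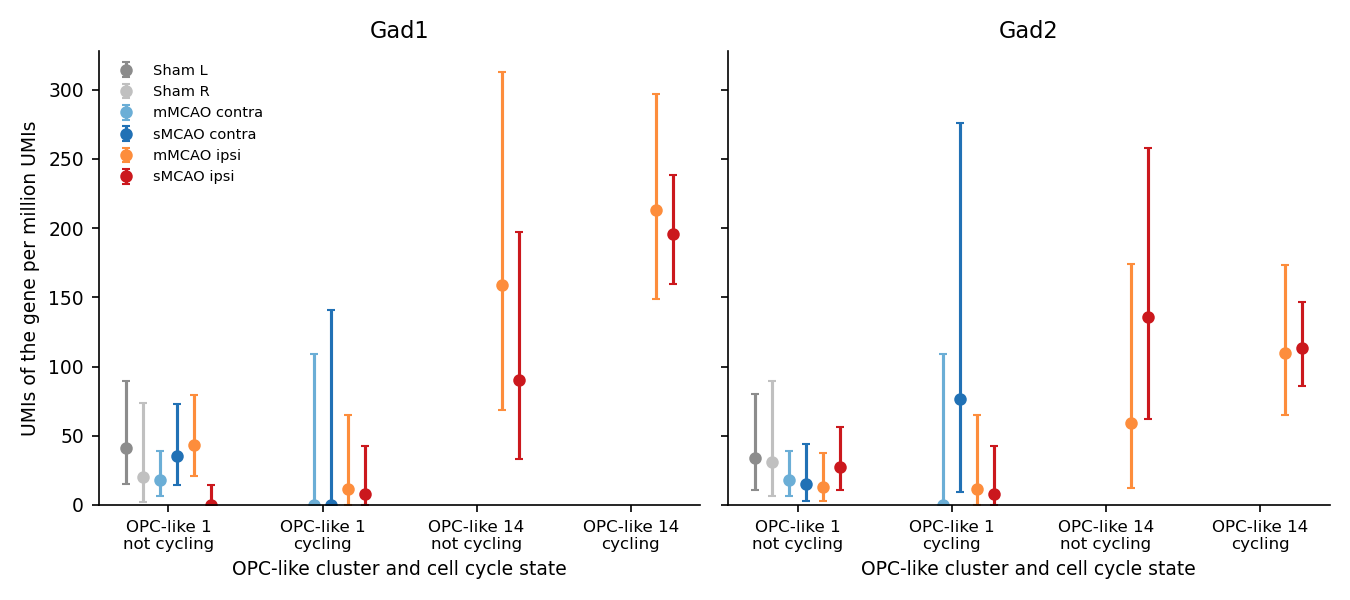
UMIs of Gad1 (left) and Gad2 (right) per 1000000 UMIs in the 2 OPC-like clusters, split by cell cycle state; 1 point is 1 library with at least 20 nuclei and the bars are 95% Poisson intervals. Cycling nuclei of OPC-like 1 in MCAO ipsi lie at 7.61 to 11.7 CPM for either gene, and cycling nuclei of OPC-like 14 at 110 to 213 CPM.

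Within OPC-like 14 the summed level of Gad1 and Gad2, pooled over both MCAO ipsi libraries, did not climb steadily with the number of cell cycle UMIs. Over both MCAO ipsi libraries it was 331 CPM (193 to 531, 35 nuclei) in nuclei with 0 cell cycle UMIs, 138 CPM (63.0 to 261, 49 nuclei) with 1 to 2, 283 CPM (183 to 417, 58 nuclei) with 3 to 5, 379.6 CPM (277 to 508, 69 nuclei) with 6 to 10, and 301 CPM (254 to 355, 162 nuclei) with 11 or more. In mMCAO ipsi alone it was 277 CPM with 0 (6 UMIs), then 174, 263, 288 and 371 CPM, highest with 11 or more. In sMCAO ipsi it was 371 CPM with 0 (11 UMIs), then 109, 298, 436 and 287 CPM. The pooled share of nuclei with a Gad UMI was 17.1%, 12.2%, 20.7%, 31.9% and 29.6%, in the same order. Within OPC-like 1 the pooled level stayed between 16.1 and 48.0 CPM over the same classes.

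The signal came from a minority of nuclei, and much of it from those that carried several UMIs each. In OPC-like 14, 35 of 161 nuclei of mMCAO ipsi (21.7%) and 59 of 212 nuclei of sMCAO ipsi (27.8%) held a Gad1 or Gad2 UMI. Of these, 8 nuclei in mMCAO ipsi and 21 in sMCAO ipsi held 3 or more, with up to 7 and 16 in 1 nucleus, and gave 48.4% and 72.3% of the UMIs of both genes. In OPC-like 1, 2.58% to 5.35% of nuclei held a Gad UMI, and no nucleus of any library held more than 2. Single nuclei with several Gad1 UMIs were also found elsewhere. In sMCAO ipsi the highest held 10 in vascular-like and 5 in astrocyte-like nuclei. In mMCAO ipsi the highest held 6 in the unnamed cluster with OPC and myeloid markers described below. Thinned to 1000 UMIs a nucleus, the share in OPC-like 14 was 21.0% (14.1 to 29.4, exact binomial interval, 119 nuclei) in mMCAO ipsi and 14.6% (10.1 to 20.2, 205 nuclei) in sMCAO ipsi, against 4.46% (1.47 to 10.1) and 2.86% (1.06 to 6.11) in OPC-like 1. In interneurons of the MGE type, thinned in the same way, it was 46.6% in mMCAO ipsi and 56.3% in sMCAO ipsi, and in glutamatergic neurons 0.783% and 0.619%.

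**Figure D3:**
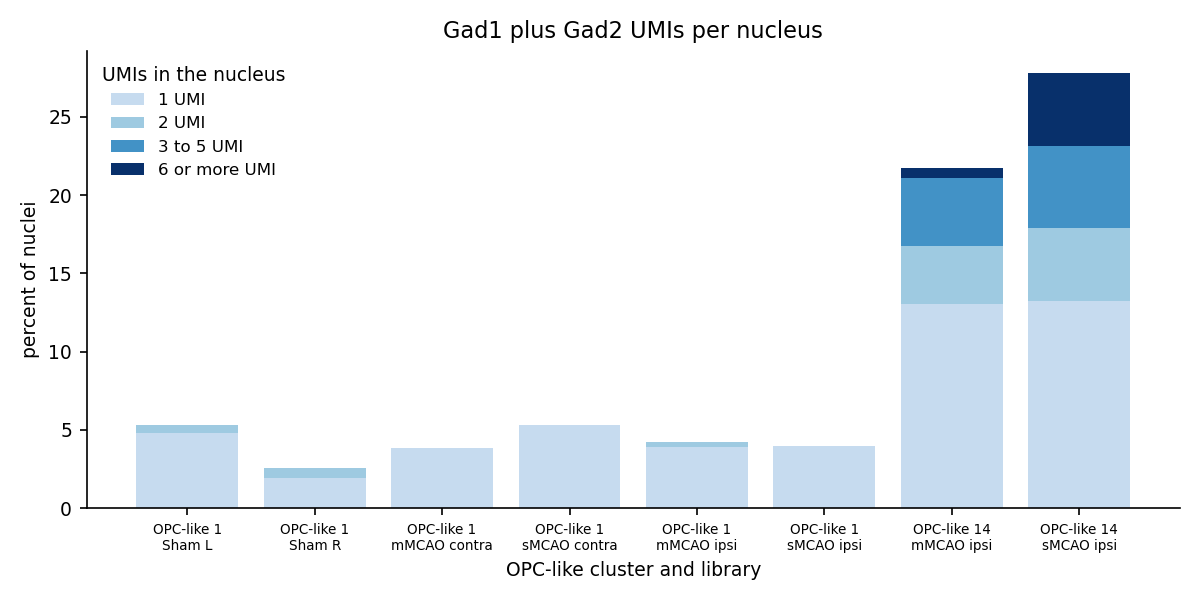
Percent of OPC-like nuclei (y axis) that held 1, 2, 3 to 5, or 6 or more UMIs of Gad1 and Gad2 together, for each OPC-like cluster and library (x axis). Nuclei with 3 or more are seen in OPC-like 14 of mMCAO ipsi and sMCAO ipsi, and in no library of OPC-like 1.

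Most nuclei of OPC-like 14 with a Gad UMI held 1 of the genes. Of the 22 nuclei of mMCAO ipsi with a Gad1 UMI, 3 (13.6%) also had a Gad2 UMI, and of those without Gad1 9.35% did. In sMCAO ipsi, 7 of 32 (21.9%) had both, against 15% among nuclei without Gad1. Nuclei with more UMIs in all hold more of either gene, and the share with both was not corrected for depth.

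Snap25, Syt1 and Rbfox3, which encode 2 proteins of synaptic vesicle release and the nuclear protein NeuN and are known as neuronal genes, served as the control for neuronal RNA and are called neuron-only genes here. In MCAO ipsi, Syt1 and Rbfox3 lay higher in OPC-like nuclei than in oligodendrocyte-like, astrocyte-like, myeloid-like and vascular-like nuclei. Whether they measure free RNA alone there was not tested. In Sham, Rbfox3 was at 128 and 106 CPM in OPC-like nuclei and at 117 and 135 CPM in oligodendrocyte-like nuclei. Syt1 was at 1219 and 1324 CPM in the former and 1193 and 1117 CPM in the latter. Syt1 was at 698 and 424 CPM in OPC-like 1 of mMCAO and sMCAO ipsi and at 489 and 262 CPM in OPC-like 14, against at most 452 and 107 CPM in oligodendrocyte-like, astrocyte-like, myeloid-like and vascular-like nuclei. Rbfox3 was at 78.6 and 77.5 CPM in OPC-like 1 and at 55.9 and 76.3 CPM in OPC-like 14, against at most 31.0 and 11.3 CPM in those classes. The neuron-only genes were lower in OPC-like nuclei of MCAO ipsi, where the Gad genes were higher. Syt1 and Rbfox3 were also lower in other glia of MCAO ipsi, so this was not particular to OPC-like nuclei. In oligodendrocyte-like nuclei Syt1 went from 1193 and 1117 CPM in Sham to 450 and 103 CPM in MCAO ipsi. Rbfox3 went from 117 and 135 CPM to 31.0 and 11.3 CPM there. In astrocyte-like nuclei Syt1 went from 1122 and 1134 CPM to 328 and 105 CPM. Snap25 was at 485 and 396 CPM in OPC-like nuclei of Sham, 367 and 403 CPM in MCAO contra, and 297 and 193 CPM in MCAO ipsi, and the MCAO ipsi libraries lay below all others. In OPC-like 14 it was at 214 CPM in mMCAO ipsi and 128 CPM in sMCAO ipsi.

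In OPC-like nuclei of MCAO ipsi against Sham, 2 of the 3 neuron-only genes fell (edgeR, quasi-likelihood test, p adjusted over all genes after Benjamini and Hochberg). Syt1 changed by -1.54 ± 0.24 (log2 fold change ± SE, adjusted p = 0.000521) and Snap25 by -0.98 ± 0.23 (adjusted p = 0.00969), while Rbfox3 at -0.78 ± 0.29 did not pass (adjusted p = 0.0877). Of all 6045 genes tested in this comparison 13.6% were called, which took an adjusted p below 0.05 and a log2 fold change of 0.6 or more in either direction, and 6.93% were called lower. Without Sham L the change of Snap25 was -0.77 with an adjusted p of 0.233. Against MCAO contra, where 15.9% of 6045 genes were called and 7.73% were called lower, all 3 fell, by -1.08 ± 0.23 (Rbfox3, adjusted p = 0.00403), -0.84 ± 0.23 (Syt1, 0.0200) and -0.80 ± 0.21 (Snap25, 0.0163). Each of these 3 lost its call without mMCAO contra (adjusted p = 0.0910, 0.132 and 0.0882), and Syt1 and Snap25 also without sMCAO contra (0.0741 and 0.0999) or sMCAO ipsi (0.0511 and 0.0951). With the gate on each nucleus described below, none of these 5 calls was made (adjusted p = 0.0521 to 0.384). In the same fits, with no p given, Gad1 changed by 1.70 ± 0.43 against Sham and 2.16 ± 0.36 against MCAO contra, and Gad2 by 0.97 ± 0.50 and 1.25 ± 0.40. OPC-like 14 held 161 and 212 of the OPC-like nuclei of MCAO ipsi and 0 of Sham, so these folds set a mixture of the clusters against OPC-like 1. In sums of this kind, more nuclei with the RNA and more RNA in each cannot be told apart.

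The direction of these folds depended on how OPCs were chosen. A gate on each nucleus in place of clusters, added after the data were seen, took 1538 nuclei, of which 1076 were in an OPC-like cluster. Under it the change against Sham was -0.97 for Gad1 and -0.37 for Gad2, and the change against MCAO contra was 0.071 for Gad1 and -0.29 for Gad2. The gated nuclei of Sham that lay in other clusters had 119 and 137 CPM of Gad1 and 573 and 863 CPM of Snap25. The gated nuclei of OPC-like 14 had 190 CPM of Gad1 in mMCAO ipsi and 111 CPM in sMCAO ipsi, against 15.7 and 3.19 CPM in those of OPC-like 1. The gate took 73 of the 161 OPC-like 14 nuclei of mMCAO ipsi (45.3%) and 122 of the 212 of sMCAO ipsi (57.5%). All OPC-like 14 nuclei of mMCAO ipsi together had 200.5 CPM of Gad1 (145 to 270.0), an interval that holds the 190 CPM of the gated nuclei. Those of sMCAO ipsi had 184 CPM (150.4 to 222), above the 111 CPM of the gated nuclei. In sMCAO ipsi, therefore, nuclei outside the gate had higher levels than those inside it.

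Counted per neuron-only UMI, Gad UMIs were more frequent in OPC-like 14 than in the 3 named classes of GABAergic neurons. Of all 69967 nuclei, 16406 lay in no named class and are not in this comparison. They include a cluster of 7580 nuclei whose best match was the MGE type. Another, of 1154 nuclei, had Gad2 among its 10 highest genes by fold. OPC-like 14 had 0.393 Gad UMIs per UMI of the 3 neuron-only genes in mMCAO ipsi and 0.643 in sMCAO ipsi. Interneurons of the MGE type had 0.138 and 0.176, interneurons of the CGE type (Adarb2, Vip, Lamp5) 0.140 and 0.133, and medium spiny neurons 0.117 and 0.113. The ratio in OPC-like 14 was 2.84 times that of MGE type interneurons (2.12 to 3.80) in mMCAO ipsi and 3.66 times (2.99 to 4.48) in sMCAO ipsi. The intervals of ratios and folds cover counting error only and leave out the spread between nuclei. In OPC-like 14, nuclei with 3 or more Gad UMIs gave 48.4% of them in mMCAO ipsi and 72.3% in sMCAO ipsi. Other glia had lower ratios, with 0.0418 and 0.0294 in OPC-like 1, 0.0684 and 0.114 in oligodendrocyte-like and 0.0972 and 0.129 in myeloid-like nuclei, and glutamatergic neurons had 0.00116 and 0.000831. The ratio of OPC-like 1 has the higher neuron-only levels of that cluster in its denominator. Vascular-like nuclei, however, had 0.0261 in mMCAO ipsi and 0.369 (0.236 to 0.563, 31 Gad UMIs) in sMCAO ipsi, an interval that overlaps that of OPC-like 14 (0.528 to 0.781). With each neuron-only gene alone, the ratio in OPC-like 14 stayed above that of MGE type interneurons in both libraries (1.56 to 4.99 times). Over Snap25 alone it was 1.39 times that of CGE type interneurons in mMCAO ipsi, with an interval of 0.938 to 2.06, and over Rbfox3 alone 1.40 times that of myeloid-like nuclei in sMCAO ipsi (0.714 to 2.76).

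**Figure D4:**
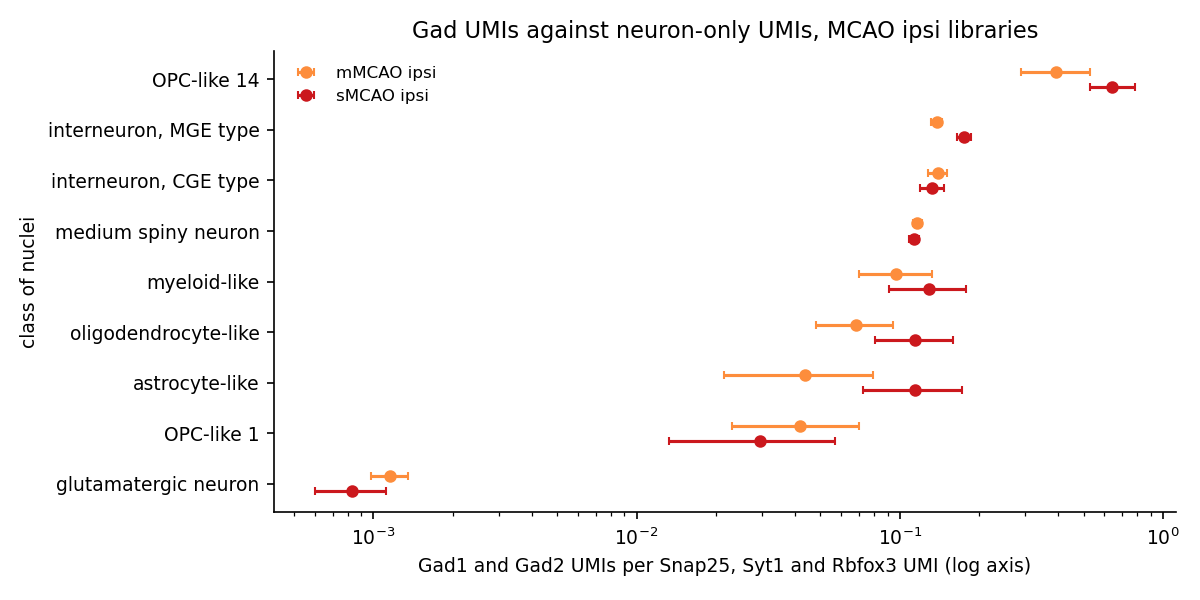
Gad1 and Gad2 UMIs per UMI of Snap25, Syt1 and Rbfox3 (log axis) in a choice of the classes of nuclei of the 2 MCAO ipsi libraries, with exact binomial 95% intervals. Ependymal-like, committed OPC-like and vascular-like nuclei are not plotted. The interval of vascular-like nuclei in sMCAO ipsi overlaps that of OPC-like 14. OPC-like 14 lies at 0.393 and 0.643, to the right of the interneuron classes at 0.133 to 0.176.

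Between nuclei of OPC-like 14 with and without a Gad UMI, the intervals of the 3 neuron-only genes, Pdgfra and Sox10 overlapped, and Pcdh15 was lower in those with one. In MCAO ipsi, the 94 nuclei with a Gad UMI had 155 CPM of Snap25 (109 to 212), and the 279 without had 150.3 CPM (120 to 187). Syt1 was at 329 CPM (262 to 409.5) and 321 CPM (275 to 372), and Rbfox3 at 85.4 CPM (52.9 to 131) and 64.1 CPM (44.7 to 89.2). Within the libraries Snap25 was at 212 and 215 CPM in mMCAO ipsi and at 137 and 124 CPM in sMCAO ipsi, and Syt1 at 599.7 and 449.9 CPM and at 248 and 268 CPM, with intervals that overlapped. Pdgfra was at 349.8 CPM and 343 CPM, Sox10 at 122 and 126 CPM, and Top2a, an enzyme of the dividing nucleus, at 395 and 390.4 CPM. Pcdh15, an OPC adhesion gene that interneurons also use, was at 1708 CPM (1549 to 1880) and 2247 CPM (2123 to 2376). Their median doublet scores were 0.197 and 0.182, and their median depths 2210 and 1740 UMIs. The doublet score of OPC-like 14 was above that of OPC-like 1 in both libraries, at 0.362 against 0.162 in mMCAO ipsi and 0.121 against 0.0606 in sMCAO ipsi. In mMCAO ipsi nuclei with a Gad UMI had 0.325, and in sMCAO ipsi 0.136. The part of doublets in the Gad levels was not tested beyond leaving out the likely doublets.

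Slc32a1, a gene of GABAergic neurons, and Lhx6 and Sst, markers of MGE type interneurons, were at or near 0 beside Gad1 and Gad2. Reln and several interneuron markers shared with OPCs were abundant. Slc32a1, the vesicular GABA transporter, had 1 UMI in OPC-like 14 of MCAO ipsi against 237 Gad UMIs, while interneurons of the MGE type had 77 Slc32a1 UMIs for 3126 Gad UMIs. The interneuron factor Lhx6 had 3 UMIs in OPC-like 14 (3.79 CPM) and was at 43.2 CPM in MGE type interneurons. Kcnc2, a potassium channel of fast-spiking interneurons, was at 31.6 CPM in OPC-like 14, 119 CPM in OPC-like 1 and 3205 CPM in MGE type interneurons. Sst was at 0 in OPC-like 14 of both libraries. The other abundant MGE type markers, Nxph1 and Sox6, are shared with OPCs and were at 3144 and 2962 CPM in OPC-like 14 and at 5611 and 2841 CPM in OPC-like 1.

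Reln, which encodes the secreted glycoprotein reelin and is in the CGE type marker list, was at 1077 CPM (942 to 1225) in OPC-like 14 of mMCAO ipsi and 1179 CPM (1092 to 1271) in sMCAO ipsi. In OPC-like 1 it was at 13.3 to 25.5 CPM over the 6 libraries. In the whole OPC-like class of MCAO ipsi Reln changed by 4.56 ± 0.43 against Sham and by 4.02 ± 0.32 against MCAO contra. Reln was chosen after its values were seen, so no p is given. OPC-like 14 held no nuclei of Sham and few of MCAO contra, so these folds set a mixture of the clusters against OPC-like 1. Of the other 6 genes of that list Adarb2 was abundant in both clusters, at 1874 and 2362 CPM in OPC-like 14 of mMCAO and sMCAO ipsi and at 3849 and 3989 CPM in OPC-like 1. Cnr1 was at 42.0 and 93.6 CPM in OPC-like 14, against 22.0 and 15.5 CPM in OPC-like 1. Prox1 was at 18.6 and 3.47 CPM in OPC-like 14. Lamp5 and Vip were at 9.32 CPM and 4.66 CPM in mMCAO ipsi and at 0 in sMCAO ipsi, and Htr3a was at 0 in both.

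Factors of GABAergic neurons were low in both OPC-like clusters, and neuroblast markers summed to less in OPC-like 14 than in OPC-like 1. Summed over 11 measured GABAergic transcription factors, OPC-like 14 had 46.6 CPM in mMCAO ipsi and 34.7 CPM in sMCAO ipsi, the first above and the second within the 22.2 to 44.0 CPM of OPC-like 1, while MGE type interneurons had 138 to 174 CPM. Dlx1 had 2 UMIs and Dlx2, Dlx5 and Dlx6 had 1 each. The 8 neuroblast markers summed to 252 and 227 CPM in OPC-like 14 and to 299.6 to 427 CPM in OPC-like 1, with Igfbpl1 and Cd24 at 0 in OPC-like 14. Within that list the order was the other way for Sox11. Sox11, a factor of immature neurons that other progenitors also use, was at 27.8 CPM in OPC-like 14 and 2.84 CPM in OPC-like 1.

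The rest of the GABA pathway in OPC-like nuclei was tested from lists of 50 genes. Of the 8 genes beside the Gad genes that make or convert glutamate, 4 could be tested, and none passed the test in MCAO ipsi against Sham or MCAO contra (among them Glud1, Got1 and Got2, with log2 fold changes of -0.01 to 1.02). The genes of GABA synthesis from putrescine were too low to be tested. Of the vesicle genes 2 were tested, Vamp2 among them, and neither was called. Of all 6045 genes tested 13.6% were called against Sham and 15.9% against MCAO contra. The median log2 fold change of all genes tested was 0.04 against Sham and 0.02 against MCAO contra.

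Of 12 tested GABA-A and GABA-B receptor genes, 6 fell, 1 rose and 5 were not called in OPC-like nuclei of MCAO ipsi against Sham, with a median of -0.997, where 6.93% of all genes were called lower. Against MCAO contra 6 fell, 1 rose and 5 were not called, with a median of -0.66, where 7.73% were called lower. Syt1 and Snap25 fell in the same fits, by -1.54 and -0.98 against Sham, and their part in the receptor values was not tested. Gabrb1, a subunit of GABA-A receptors, was at 613 and 686 CPM in Sham, 434 and 495 CPM in MCAO contra, and 242 and 81.9 CPM in MCAO ipsi, with no overlap between MCAO ipsi and the others. It changed by -2.16 ± 0.35 against Sham (edgeR, adjusted p = 0.000607) and by -1.71 ± 0.33 against MCAO contra (0.0021). Gabrb2 changed by -1.71 ± 0.25 (0.000318) and -1.21 ± 0.22 (0.00149). The GABA-B subunit gene Gabbr2 changed by -1.97 ± 0.30 (0.000467) and -1.47 ± 0.27 (0.0017), but without Sham L its change against Sham was -1.46 with an adjusted p of 0.0920. The calls of Gabra4 in both comparisons and of Gabra2 against Sham were each lost without 2 or more of the libraries. With the gate on each nucleus, the calls of Gabrb1, Gabbr2, Gabra4 and Gabra2 and that of Gabrb2 against MCAO contra were lost (adjusted p = 0.0556 to 0.434).

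Gabrg3, the gamma 3 subunit of GABA-A receptors, was the receptor gene that rose, but its direction turned with the gate on each nucleus, to -0.52 against Sham and -0.038 against MCAO contra. It was at 517 and 406 CPM in Sham, 439 and 499 CPM in MCAO contra, and 719 and 939 CPM in MCAO ipsi, with 1100 and 1348 CPM in OPC-like 14. The change was 0.74 ± 0.20 against Sham (edgeR, adjusted p = 0.0188) and 0.71 ± 0.18 against MCAO contra (0.0125). Without 1 of the Sham libraries the first was not called (adjusted p = 0.0696 and 0.245), nor was the second without 1 of the MCAO contra libraries (0.195 and 0.0759), and without sMCAO ipsi both were under 0.6 (0.54 and 0.53).

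Of the 2 genes in the list of GABA breakdown, Abat, the transaminase that degrades GABA, was called lower against Sham, where 6.93% of 6045 genes were. Abat fell by 1.41 ± 0.44 on the log2 scale (edgeR, adjusted p = 0.0415). It went from 83.0 and 96.7 CPM to 43.2 and 30.1 CPM, with 77.2 and 34.7 CPM in MCAO contra. The call was lost without Sham L, Sham R or sMCAO ipsi (adjusted p = 0.228, 0.179 and 0.0881) and with the gate on each nucleus (0.0776). Against MCAO contra, where 7.73% of 6045 genes were called lower, Slc1a2, a glutamate transporter outside that list, changed by -0.66 ± 0.21 (edgeR, adjusted p = 0.0383). It lost its call without mMCAO contra, sMCAO contra or sMCAO ipsi (adjusted p = 0.146 to 0.261) and without Sham L (0.0501). With the rat pool as replicate block, Slc1a2 was at -0.64 (0.0524) and was not called. Aldh5a1 was at -1.24 ± 0.48 against Sham and did not pass (0.0967).

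**Figure D5:**
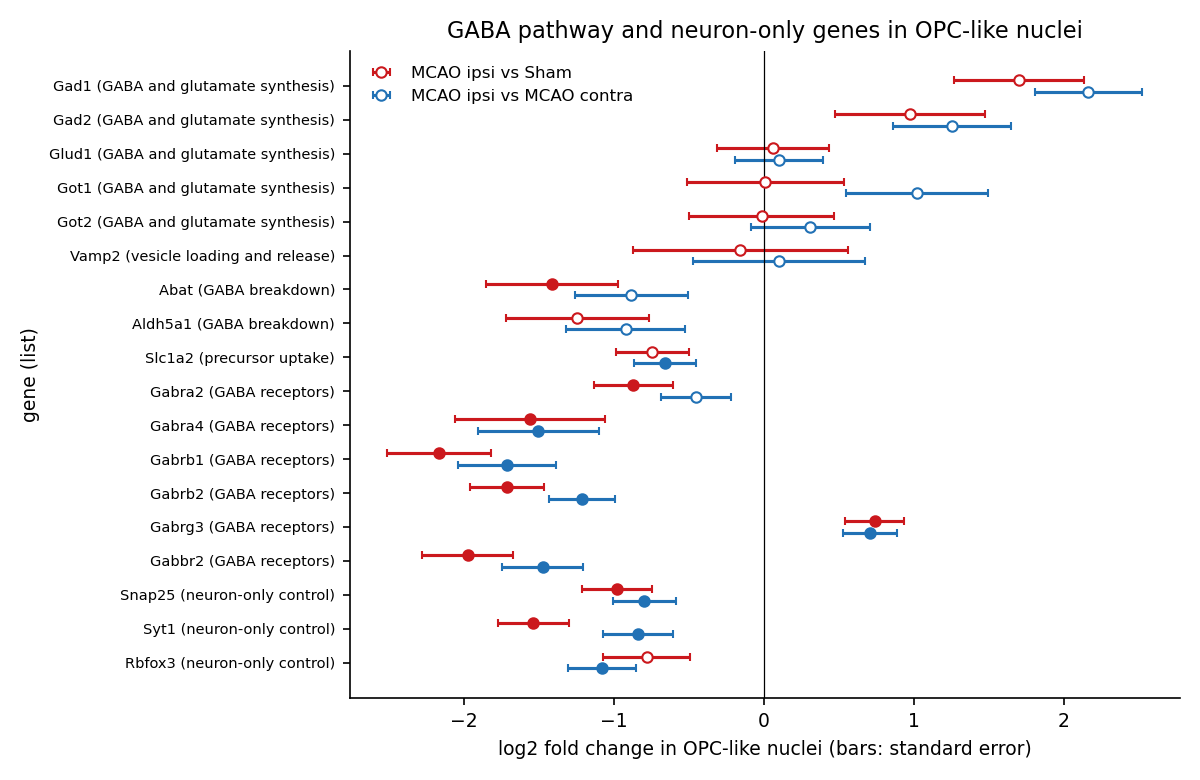
Log2 fold changes in OPC-like nuclei for MCAO ipsi against Sham (red) and against MCAO contra (blue), for tested genes of the GABA lists that the text names and for the neuron-only control (y axis); bars are standard errors and filled points were called. Gad1 and Gad2, for which no p is given, lie at 0.97 to 2.16, and Snap25, Syt1 and Rbfox3 at -1.54 to -0.78.

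The same genes were compared between cycling and other OPC-like nuclei within the 4 MCAO libraries, each of which had at least 20 nuclei of both states. The states lay largely in different clusters. In MCAO ipsi 113 of 178 and 176 of 239 cycling nuclei were in OPC-like 14, and 267 of 315 and 163 of 199 others were in OPC-like 1, so that these folds largely set OPC-like 14 against OPC-like 1. Of 6131 genes 17.5% were called and 8.17% were called lower in cycling nuclei. Abat changed by -1.72 ± 0.44 (edgeR, adjusted p = 0.00163). Of 12 receptor genes 5 fell and Gabrg3 rose, by 1.07 ± 0.16 (5.83e-08). Snap25 changed by -0.67 ± 0.18 (0.00378) and Syt1 by -0.53 ± 0.16, under the fold limit. Gad1 differed by 1.52 ± 0.34 and Gad2 by 0.95 ± 0.37, with no p given.

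Between MCAO contra and Sham, OPC-like nuclei had 1 gene called of 6045 (0.0165%), and 473 genes had an unadjusted p under 0.05. Gad1 changed by -0.46 ± 0.61 (edgeR, adjusted p = 0.917) and Gad2 by -0.28 ± 0.63 (0.962), from 8 to 15 UMIs a group, a depth at which only large changes could be seen.

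For comparison with the neurons that use both enzymes, the levels were set in order over all libraries. For Gad1 they were 414 ± 25.5 CPM (SD, n = 6 libraries) in CGE type interneurons, 367 ± 95.1 in MGE type interneurons, 231 ± 68.7 in medium spiny neurons and 192 ± 11.8 (n = 2) in OPC-like 14. CGE and MGE type interneurons did not differ beyond their spread. In the MCAO ipsi libraries, which alone held OPC-like 14 in number, medium spiny neurons were at 313 CPM (296 to 331) and 322 CPM (303 to 343), above the intervals of OPC-like 14, while in Sham they were at 168 and 179.9 CPM. Below these came oligodendrocyte-like (26.5 ± 13.9), OPC-like 1 (23.7 ± 13.5), vascular-like (21.0 ± 17.1), astrocyte-like (13.4 ± 9.86) and committed OPC-like nuclei (11.7 ± 9.95), which overlapped, then ependymal-like nuclei (7.49 ± 10.4, n = 5) and glutamatergic neurons (4.84 ± 1.02). For Gad2 they were 341 ± 22.7 CPM in CGE type interneurons, 312 ± 21.2 in medium spiny neurons and 300.3 ± 21.6 in MGE type interneurons, which overlapped, then 107 ± 12.9 (n = 2) in OPC-like 14, and at most 37.1 ± 37.0 in the other glial and vascular classes. Myeloid-like nuclei were left out of this order for Gad1, since 22 nuclei of Sham L gave 223 CPM and the other 4 libraries with at least 20 nuclei 13.6 to 66.2 CPM.

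In medium spiny neurons Gad1 rose on the side of the infarction. It was at 168 and 179.9 CPM in Sham, 211 and 191 CPM in MCAO contra, and 313 and 322 CPM in MCAO ipsi, and MCAO ipsi did not overlap with the other groups. The change was 0.79 ± 0.08 against Sham (edgeR, adjusted p = 1.44e-05) and 0.65 ± 0.08 against MCAO contra (9.63e-05), where 4.68% and 3.35% of 11639 genes were called. Without sMCAO contra the second change was 0.58, under the limit of 0.6. Gad2 was at 287 to 341 CPM in all 6 libraries and changed by 0.06 ± 0.07 (0.682) and 0.19 ± 0.07 (0.135).

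In MGE type interneurons Gad1 was at 292 and 303 CPM in Sham, 317 and 352 CPM in MCAO contra, 390.0 CPM in mMCAO ipsi and 547 CPM in sMCAO ipsi. It rose by 0.62 ± 0.12 against Sham (edgeR, adjusted p = 0.0112), where 1.86% of 11267 genes were called, and differed by 0.54 ± 0.12 from MCAO contra (0.0297), under the fold limit, in a comparison that called 0.808% of genes. Without sMCAO ipsi the change against Sham was 0.39, and without Sham L or Sham R its adjusted p was 0.297 or 0.134. With doublets kept, when the clusters changed and the class grew, the change was 0.07. Without mMCAO ipsi the change against MCAO contra was 0.76 and was called. In CGE type interneurons Gad1 (367 to 438 CPM) and Gad2 (316 to 378 CPM) changed by 0.07 to 0.19 in MCAO ipsi with adjusted p-values of 0.662 to 0.913, in comparisons that called 0.379% of 8188 genes against Sham and 0.0977% against MCAO contra.

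Gad levels in classes that should lack both genes were taken as a background of free RNA, and whether they hold free RNA alone was not tested. In vascular-like nuclei of sMCAO ipsi 24 Gad1 UMIs lay in 12 nuclei, with up to 10 in 1 nucleus. Over myeloid-like, vascular-like and oligodendrocyte-like nuclei together, Gad1 was at 32.2 and 38.3 CPM in Sham, 19.3 and 23.7 CPM in MCAO contra, 29.9 CPM (22.5 to 38.9) in mMCAO ipsi and 15.5 CPM (12.2 to 19.4) in sMCAO ipsi. Gad2 was at 37.2 and 34.8 CPM in Sham, 17.2 and 24.6 CPM in MCAO contra, and 17.4 and 7.83 CPM in MCAO ipsi. OPC-like 1 lay in these ranges over all libraries for both genes, other than 2.58 CPM of Gad1 in sMCAO ipsi, and OPC-like 14 lay above them in both MCAO ipsi libraries. Within sMCAO ipsi, however, Gad2 in OPC-like 1 was at 20.7 CPM (8.92 to 40.7), above the 7.83 CPM (5.54 to 10.7) of these classes. In glutamatergic neurons Gad2 was at 6.63 and 6.26 CPM in Sham and 2.92 and 1.48 CPM in MCAO ipsi, a change of -1.50 ± 0.31 (edgeR, adjusted p = 0.0162, and 0.160 and 0.0726 without Sham L or Sham R), where 6.32% of 14737 genes were called.

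The genes most like Gad1 and Gad2 over 64 class and library sums were described by Pearson's r of log2(CPM + 10). The sums share libraries and classes, and the values are no test. For Gad1 the 5 highest of 14361 genes were Gad2 (0.87), the homeobox gene Dlx5 (0.84), an unnamed gene, ENSRNOG00000030759 (0.80), the synaptic scaffold gene Grip1 (0.79) and Gpr176 (0.78). For Gad2 they were Gad1 (0.87), Dlx5 (0.85), Dlx6 (0.84), Synpr (0.83) and Reln (0.83). The order depended on the measure. By Spearman's rho the 5 genes named for Gad1 ranked 1, 4, 6, 19 and 20, and those for Gad2 ranked 2, 29, 19, 15 and 1. Over the 10 sums of OPC-like states, the genes most like the mean of both by Pearson's r, cell cycle genes left out, were ENSRNOG00000028677 (0.96), Iws1 (0.95), Ttl, a tubulin-tyrosine ligase (0.94), Dpysl2 (0.94) and Dpysl3 (0.94), whose highest levels were 72.1 to 291 CPM. By Spearman's rho these 5 ranked 9, 105, 689, 326 and 240 of 10928 genes, so none stayed among the 5 highest.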

How the data were processed

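Nuclei of rat hemispheres were sequenced with a 10x 5' kit, and the submitters' processing notes name Cell Ranger 7.0.0 and mRatBN7.2. The deposited matrices hold the authors' counts, whole numbers of UMIs per gene and nucleus, with introns counted, and were used as deposited. Nuclei with at least 500 UMIs, 250 to 5000 genes and at most 5% mitochondrial UMIs were kept, and the 5% of each library with the highest doublet score were left out. Nuclei were clustered (Leiden, resolution 1, 3000 variable genes, 30 principal components) in 2 rounds, and clusters were named from marker lists at a mean log2 fold of 1.5 or more over the median cluster. Gad1 and Gad2, the gene lists and the marker lists were chosen with earlier results of these data known, and the naming thresholds and the gate on each nucleus after clusters were seen.

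UMIs were summed per library and class. Groups were compared with edgeR 4.0.16 (quasi-likelihood test, TMM, filterByExpr, R 4.3.3) over all 6 libraries, in classes with at least 20 nuclei in every library, and cycling against other OPC-like nuclei with library as block. Genes were called where the p adjusted after Benjamini and Hochberg was below 0.05 and the log2 fold change reached 0.6 in either direction. Standard errors were computed as the absolute log2 fold change over the square root of F. Only Gad1, Gad2, the control genes, genes called in the GABA lists (at most 4 a list by size) and the 5 genes most like Gad1, Gad2 or both were to be named. Other named genes, Reln and the further receptor and marker genes among them, were chosen after their values were seen. Tested on simulated data, the OPC fit of MCAO ipsi against Sham recovered 38% of 2-fold and 76% of 4-fold changes. Ipsi and contra libraries come from the same rats, and the rat pool was used as replicate block in an alternative. DESeq2 1.42.0 was another alternative. Some genes of the lists are counted but not reported here by name. RefSeq promoters were matched by symbol for both genes.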

Additional observations from a re-analysis of the deposited data

How the results depend on the processing

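Each group had 2 libraries, so no fit here can separate the animals from the group, and leaving out a library leaves an arm with 1 library that is assumed to vary like the others. OPC-like sums held 103457 to 964061 UMIs, which limits Gad levels to a few UMIs in Sham and MCAO contra. The stricter marker gate left only OPC-like 14, so its test between groups could not be fitted.

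Gad1 in cycling OPC-like nuclei was at 213 CPM (mMCAO ipsi) and 196 CPM (sMCAO ipsi) with the stricter gate and at 88.9 and 84.6 CPM with the gate on each nucleus, where Gad2 was at 44.5 CPM in mMCAO ipsi. Without the nucleus with most Gad UMIs, or without nuclei with a neuron-only UMI, Gad1 lay between 117 and 221 CPM in mMCAO ipsi and between 133 and 204 CPM in sMCAO ipsi, and Gad2 between 13.8 (1 UMI) and 77.0 CPM and between 89.4 and 92.4 CPM. The share of cycling nuclei with a Gad UMI, 15.9% and 12.4% at 1000 UMIs, was 7.30% and 7.95% at 500 UMIs, and 23.8% in sMCAO ipsi with all UMIs. Genes called in OPC-like nuclei numbered 343 by DESeq2, 515 with the gate on each nucleus and 225 (without Sham L) to 1362 (without mMCAO ipsi) for MCAO ipsi against Sham, where the edgeR fit called 820. Against MCAO contra (963) they numbered 295, 160 and 339 to 1609. For MCAO contra against Sham (1) they numbered 0 by DESeq2 and by the gate, 27 with no filter, 59 with only the 2 groups and 0 to 74 without a library. Cycling against other nuclei gave 498 by DESeq2 (1070 by edgeR).

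In MGE type interneurons with doublets kept, Gad1 against Sham was at 0.072, Gad2 at -0.14, and Gad1 of MCAO contra against Sham at -0.27. With no filter Gad1 against Sham was at 0.59. Without a library it ran from 0.39 to 0.84 against Sham and from 0.32 to 0.76 against MCAO contra, and Gad1 of medium spiny neurons from 0.58 to 0.72 against MCAO contra. With the gate on each nucleus, Gad1 and Gad2 in OPCs against Sham were at -0.97 and -0.37, Gad2 against MCAO contra at -0.29, and Gabrg3 at -0.52 and -0.038. Values of results not called also turned without 1 library. For MCAO contra against Sham, Gad1 ran from -0.87 to 0.24 in OPC-like nuclei (also 0.016 without mMCAO contra), from -0.0013 to 0.13 in CGE type interneurons and from -0.38 to 0.14 in glutamatergic neurons, where Gad2 ran from -0.40 to 0.18. For MCAO ipsi against MCAO contra, Gad1 in oligodendrocyte-like nuclei ran from -0.61 to 0.86 (also -0.074 without mMCAO contra). Except where a setting defines its own cause, the cause was not tested. With the rat pool as replicate block, 868 genes were called in OPC-like nuclei against MCAO contra, and of the named genes only Slc1a2 changed its call.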

Other observations

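An unnamed cluster of 185 nuclei, chosen after its values were seen, held 42 nuclei of mMCAO ipsi and 101 of sMCAO ipsi and carried Gad UMIs beside other genes of GABAergic neurons. In sMCAO ipsi it had 130 Gad1 UMIs, up to 37 in 1 nucleus, and 50 of Gad2, against 6 and 4 in mMCAO ipsi. Its 15 nuclei of mMCAO contra and 14 of sMCAO contra had 5 and 4 Gad1 UMIs and 2 and 9 of Gad2. Dlx1 was at 50.4 CPM and Slc32a1 at 30.7 CPM there, over both MCAO ipsi libraries, against 2.53 and 1.26 CPM in OPC-like 14. Pdgfra was at 6.58 CPM against 345 CPM in OPC-like 14. The cluster's median doublet score in mMCAO ipsi, which held few of these Gad UMIs, was 0.556, and the part of doublets in these values was not tested.

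Another unnamed cluster carried both OPC and myeloid markers, and 214 of its 377 nuclei were in mMCAO ipsi. Gad1 was at 46.2 CPM (29.3 to 69.3) and Gad2 at 32.1 CPM (18.4 to 52.2) there.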
